A study of Mus musculus with 12 samples.

Results

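A set of 10 transcripts that mark the hepatocyte, the main cell of the liver, was followed through RNA sequencing of the mouse inferior vena cava (IVC). The 10 genes, of 55414 in the count table, were Alb, Ttr, Trf, Ahsg and Mug1, which encode proteins secreted into plasma, and Fabp1, Rgn, Cps1, Tat and Sult2a8, which encode proteins of the cell interior. They are known hepatocyte genes, and they were selected on their high counts in samples #05 and #09, so their levels in those samples are given as a description and without a test.

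The IVC came from 12 wild-type C57BL/6 mice aged 10 weeks, 1 library from each animal, collected on day 7. In the AVF group (n = 6, 3 males and 3 females) an aortocaval fistula, a connection from the aorta to the IVC below the renal vessels, was made by needle puncture. The sham group (n = 6, 3 males and 3 females) had the same operation without the puncture. The authors divided the AVF group by its expression pattern into the nAVF group (n = 4, samples #04 and #06 from males, #07 and #11 from females) and the OUT group (n = 2, sample #05 from a male and #09 from a female). The model is a vessel wall with its adhering tissue, measured in bulk, so fewer cells of a type and less RNA per cell cannot be told apart.

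Library totals were 15177881 to 22717423 counts. In #07, 46.0% of the counts were from ribosomal RNA genes, against 2.39% to 12.6% in the others. Levels are normalized CPM (counts scaled to a common library total), with library totals scaled with TMM, which assumes that most genes do not differ between libraries. On this scale 3 counts, used here as the limit of detection, equal 0.127 to 0.323 normalized CPM. All 6 smooth muscle markers and all 6 endothelial markers of the vessel wall were detected in both OUT samples, and none of these 12 genes was above all other samples in both. In #09, the sample with the highest levels of the members, Myh11 (564 normalized CPM, at least 959 outside OUT), Acta2 (877, at least 922) and Vwf (485, at least 523), and also Smtn, were below all 10 nAVF and sham samples. The summed smooth muscle level was 2272 in #09 and 4021 in #05, against 2610 to 4837 in the other 10, and its part in the results was not tested.

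Hepatocytes make most plasma proteins and carry out urea synthesis, the breakdown of several amino acids and the sulfonation of steroids and bile acids. Albumin (Alb) keeps the osmotic pressure of blood, transthyretin (Ttr) carries thyroid hormone and retinol-binding protein, transferrin (Trf) carries iron, fetuin-A (Ahsg) binds calcium phosphate, and murinoglobulin (Mug1) inhibits proteases. Inside the cell, the liver fatty acid-binding protein (Fabp1) carries fatty acids, regucalcin (Rgn) is a lactonase, carbamoyl phosphate synthetase (Cps1) catalyzes the first step of the urea cycle, tyrosine aminotransferase (Tat) starts tyrosine breakdown, and Sult2a8 is a sulfotransferase. Of these genes, Trf is also expressed widely outside the liver. Transcription of such genes depends on a small set of factors that hepatocytes hold in combination, among them the HNF4, FOXA and C/EBP families.

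In GENCODE M39 (GRCm39) all 10 are protein-coding genes. Alb lies at chr5:90608647-90624696 and Ahsg at chr16:22710027-22718201, both on the plus strand. Trf lies at chr9:103081200-103107814 on the minus strand. Mug1 (chr6:121815410-121866019) and Fabp1 (chr6:71176809-71182016) are on the plus strand of 1 chromosome, far apart. Rgn is at chrX:20413897-20428328, Cps1 at chr1:67161988-67270418 and Tat at chr8:110717063-110726435, all on the plus strand, and Sult2a8 is at chr7:14144611-14180694 on the minus strand.

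Promoters of 3 genes are shown because these genes stood at opposite ends of the comparison of #09 with #05: Alb and Ahsg had the highest ratios of the 10 members, and Fabp1 had the lowest. Each window runs from 250 bases before to 50 bases after the RefSeq start, from the table for GRCm38.p6, read 5′ to 3′ on the gene's strand. Exact matching found each window once in GRCm39. The places are chr5:90608479-90608778 for Alb, chr16:22710515-22710814 for Ahsg and chr6:71176613-71176912 for Fabp1, all plus strand. Capitals mark matches, on either strand, to the motifs named after the sequences.
Alb: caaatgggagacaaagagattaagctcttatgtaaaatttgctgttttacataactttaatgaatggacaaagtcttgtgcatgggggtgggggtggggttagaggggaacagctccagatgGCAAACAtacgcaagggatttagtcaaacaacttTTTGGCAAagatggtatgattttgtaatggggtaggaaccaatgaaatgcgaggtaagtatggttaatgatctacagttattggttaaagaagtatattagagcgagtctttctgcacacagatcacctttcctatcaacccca
Ahsg: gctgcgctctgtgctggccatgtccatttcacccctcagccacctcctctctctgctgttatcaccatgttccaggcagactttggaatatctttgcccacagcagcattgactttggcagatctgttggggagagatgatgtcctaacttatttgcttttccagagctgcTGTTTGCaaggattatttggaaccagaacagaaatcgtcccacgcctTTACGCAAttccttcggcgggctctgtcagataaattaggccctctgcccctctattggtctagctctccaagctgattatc
Fabp1: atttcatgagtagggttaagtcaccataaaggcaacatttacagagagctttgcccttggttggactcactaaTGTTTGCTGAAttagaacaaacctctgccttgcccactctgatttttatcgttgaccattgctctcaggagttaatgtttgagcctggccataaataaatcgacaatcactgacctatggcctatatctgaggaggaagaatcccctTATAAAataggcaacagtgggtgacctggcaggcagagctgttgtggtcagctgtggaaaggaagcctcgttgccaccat

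Windows were found for 6 of the 10 members, those not shown being Mug1, Sult2a8 and Tat. These 6 members had 7 windows, as Sult2a8 had an additional start. A motif in either of its windows counts for the gene, whereas the shares over the table are per promoter. The additional Sult2a8 start lay 8218 bases inside the GENCODE gene, and the Ahsg start lay 738 bases inside it. The FOXA motif TGTTTGC was in Ahsg, Alb and Fabp1 and in 5.07% of the 32851 promoters in the table, and the C/EBP motif TTGCNNAA was in Ahsg, Alb, Fabp1 and Sult2a8 and in 10.8% of all. In Fabp1 these motifs overlap, starting 177 and 174 bases before the start. TATAAA was in Fabp1, 30 bases before the start, in Sult2a8, and in 13.6% of all. The letters of CAAAGTCCA (HNF4), TGTTTAC (FOXA) and TTGCGCAA (C/EBP) were in no window of these 6 members, and were in 0.475%, 3.65% and 0.183% of all promoters.

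The 10 members were higher in both OUT samples than in each of the other 10 samples. For 9 of them the lower OUT sample was at least 53.4-fold above the highest other sample, and only Trf was abundant in every vein. Of 15912 genes tested, 570, or 3.58%, were above all other samples in both #05 and #09. The members' share of 10 of 10 was fixed by how they were chosen, and nothing is read from it.

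Among the secreted members, Alb reached 1850 normalized CPM in #05 and 5585 in #09. In the nAVF samples it was 0.571 in #04, 2.67 in #06, 2.16 in #07 and 0.750 in #11, and in the sham samples it ran from 0.127 to 1.94 with a median of 0.911. The nAVF and sham values overlapped, and both were about 3 orders of magnitude below OUT. Against the pooled level of the other 10 samples, Alb was 1647-fold higher in #05 (95% exact interval 1444 to 1887, counting error only) and 4973-fold higher in #09 (4362 to 5695).

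Ahsg stood at 203 normalized CPM in #05 and 649 in #09. It was 1.26 in #04, 1.95 in #06, 1.40 in #07 and 3.80 in #11, and 0.677 to 2.03 in the sham samples with a median of 1.35. Ahsg and Alb were the only members besides Trf with counts in all 12 libraries, and #11, an nAVF sample, had the highest Ahsg level outside OUT. The fold over the pooled other samples was 122 in #05 (109 to 137) and 391 in #09 (350 to 437).

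Trf reached 885 normalized CPM in #05 and 2311 in #09, against 695 in #04, 308 in #06, 270 in #07 and 403 in #11 and a sham range of 259 to 546 with a median of 281. Its separation was therefore small, with #05 1.27-fold above #04, the next sample. The fold over the pooled other samples was 2.40 in #05 (2.36 to 2.44) and 6.27 in #09 (6.19 to 6.34).

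Ttr, on the plus strand of chromosome 18 from 20797253 to 20807467, was 95.2 normalized CPM in #05 and 258 in #09, and 0 to 0.226 in the other 10 samples, of which none had more than 5 counts. Mug1 was 123 in #05 and 164 in #09, and 8 of the other 10 samples had no count of it, the remaining #06 and #16 having 3 each. Mug1 and Mug2 are close paralogs, and how reads were shared between them is uncertain.

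The intracellular members showed the same division of samples. Cps1 was 139 normalized CPM in #05 and 369 in #09, while it was 0.0571 in #04, 0.0905 in #06, 0 in #07, 0.187 in #11 and at most 0.145 in the sham samples, 4 of which had no count. Outside OUT no sample had more than 4 counts of Cps1. Fabp1 was 81.2 in #05 and 83.7 in #09, the only member at almost equal levels in both. It had at most 3 counts in any of the other 10 samples and none in 5 of them.

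Rgn was 58.8 in #05 and 124 in #09, and it was the intracellular member most often detected elsewhere, with counts in 9 of the other 10 samples and up to 0.407 normalized CPM in #06. Tat, at 50.8 and 122, had no count in 6 of the other samples and at most 2 in any. Sult2a8, at 52.9 and 65.2, had 3 counts in all 10 other samples together, which makes its fold of 3517 in #05 (1200 to 17082) and 4333 in #09 (1479 to 21040) the least precise. Sult2a8 belongs to a family of close paralogs, so the sharing of its reads is uncertain.

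**Figure D1:**
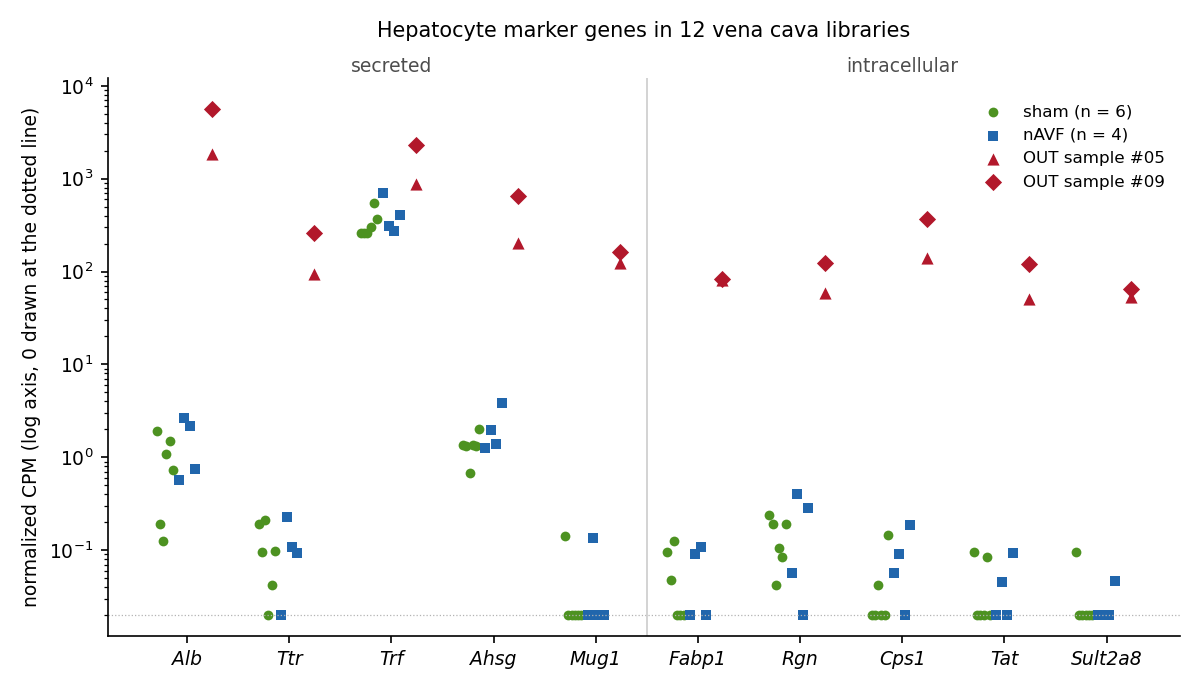
Normalized CPM of the 10 members (x axis) on a log y axis, 1 point for each library, with 0 drawn at the dotted line. Samples #05 and #09 lie above all sham and nAVF samples for each member, by at least 53.4-fold except for Trf, where #04 reached 695 against 885 in #05.

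Levels of different genes were compared per kilobase of exon, with all annotated exons of a gene merged. This length was 674 bases for Fabp1 and 4752 for Sult2a8, and it can exceed that of the transcript present. The order of different genes depends on it and was not checked with other lengths. Alb was the highest member in both OUT samples, at 363 normalized CPM per kb in #05 and 1095 in #09. Trf was next, at 155 and 406. Sult2a8 was the lowest, at 11.1 and 13.7. The order of the 10 members was the same in #05 and #09 apart from Fabp1 and Ttr, which exchanged the third and the fourth place: Fabp1 was 120 per kb in #05 and 124 in #09, and Ttr was 49.9 and 135. The 9 members other than Trf made up 0.283% of all counts in #05 (95% exact interval 0.281 to 0.286) and 0.747% in #09 (0.743 to 0.751). In the other 10 libraries they made up 0.000137% to 0.000603%.

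The members did not differ between #09 and #05 by a common factor. The ratio of #09 to #05 was highest for Ahsg at 3.20 (95% exact interval 3.09 to 3.31, counting error only) and Alb at 3.02 (2.98 to 3.06). Ttr (2.71), Cps1 (2.65), Trf (2.61), Tat (2.40) and Rgn (2.11) followed. Mug1 at 1.33 (1.27 to 1.41), Sult2a8 at 1.23 (1.13 to 1.34) and Fabp1 at 1.03 (0.961 to 1.11) were lowest. The Fabp1 ratio was 0.927 when ribosomal RNA genes were left out of the library size, which lowered all 10 ratios by the same factor. All other ratios here use TMM. The median ratio of the 10 members was 2.50. It was 1.00 over all genes tested and 1.99 over the 570 genes that were above the other samples in both. The ratio of Trf, taken on its level above the median of the other 10 samples, was 3.45, near those of Alb and Ahsg. With 1 male and 1 female sample in the OUT group, the sex of the mouse and other differences between these samples cannot be told apart.

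**Figure D2:**
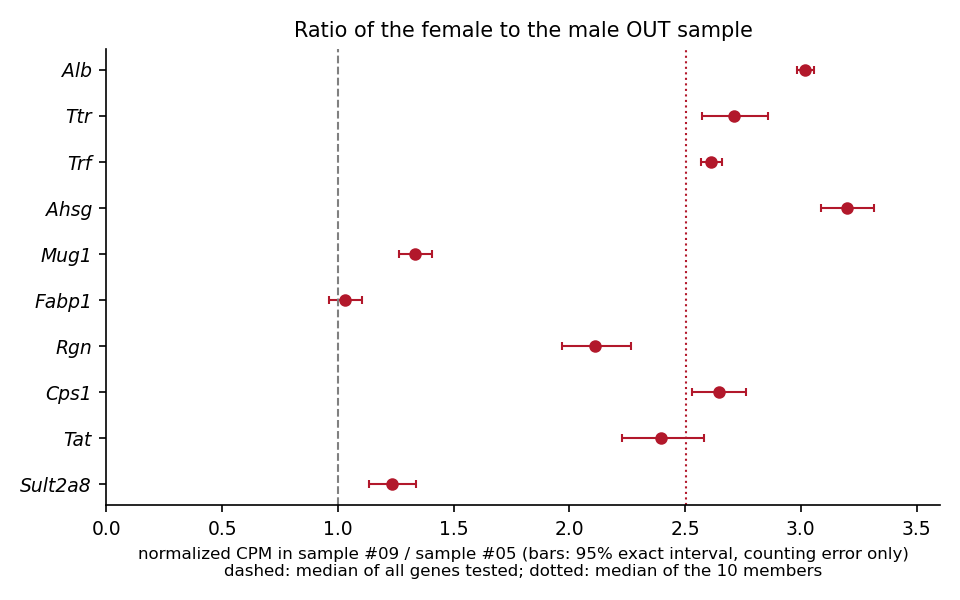
Ratio of normalized CPM in #09 to that in #05 for each member (x axis, linear), with 95% exact intervals that cover counting error only. Ahsg and Alb lie above 3, Mug1, Sult2a8 and Fabp1 lie between 1.03 and 1.33, and the dashed and dotted lines mark the medians of all genes tested (1.00) and of the members (2.50).

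Other hepatocyte genes, in lists by function chosen with earlier results of these data known, were high in the same samples. Over all 15912 genes tested, 570, or 3.58%, were above all other samples in both #05 and #09. The counts given for this and the following lists are a description and were not tested. A list of 20 further plasma protein genes also holds Ttpa, a carrier of the cell interior. In this list 18 genes were above all other samples in both #05 and #09. The highest were the vitamin D carrier Gc (183 and 557 normalized CPM, at most 0.890 elsewhere) and the protease inhibitor Pzp (212 and 477, at most 0.678 elsewhere). Kng2 and Itih4 were not above all other samples in both, and Itih4 reached 134 in another sample against 100 in #05. The median ratio of #09 to #05 over these 18 genes was 3.08. Of 7 urea cycle genes 6 were above the other samples in both, and the exception was Asl. The ratio was 3.24 for arginase (Arg1) and 1.89 for argininosuccinate synthetase (Ass1).

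Of 18 genes of amino acid breakdown, 16 were above the other samples in both, with a median ratio of 3.82. Bhmt, which remethylates homocysteine, was 45.8 in #05 and 504 in #09, a ratio of 11.0, and Mat1a, which makes S-adenosylmethionine, was 86.9 and 398. Histidine ammonia-lyase (Hal) was 3.94 and 35.1. These genes thus differed more between #09 and #05 than any member did. For glucose and ascorbate metabolism, 6 of 10 genes were above the other samples in both. Pck1 and Akr1a1 were within the range of the other veins.

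Of 12 genes of bile acid transport, synthesis and sulfonation, 10 were above the other samples in both, including the bile acid transporters Slco1b2 (68.1 and 202), Slc10a1 (24.7 and 62.5) and Abcb11 (16.2 and 53.0). Slc10a1 had no count in any of the other 10 samples. Of 12 transcription factors of hepatocytes, 8 were above the other samples in both. Hnf4a was 27.6 in #05 and 101 in #09 and at most 0.0477 elsewhere, whereas Cebpa was in the range of the other veins. Prox1 was 31.7 in #05, within that range, and 62.1 in #09, above the 47.9 of the highest other vein. Onecut1 had 198 counts in #09 and none in #05.

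Genes of both ends of the liver lobule were present. Of 8 periportal genes, a list that holds the member Cps1, 6 were above the other samples in both, with a median ratio of 3.82. Of 8 pericentral genes, which include Rgn, 5 were, with a median ratio of 2.04. Ass1, Pck1, Sds, Hal and Gls2 of the periportal list and Gulo of the pericentral list were also in the lists above. These counts and medians partly repeat those of the lists above. Glul, Cyp2e1 and Oat of the pericentral list were abundant in other veins as well, Cyp2e1 up to 2699 normalized CPM.

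Genes whose liver expression depends on sex divided the OUT samples along the sex in their labels. Of 9 male-biased liver genes, 8 were higher in #05. Mup7, a major urinary protein, was 198 in #05 and 1.15 in #09, Mup20 was 181 and 15.6, the cytochrome Cyp2d9 was 20.6 and 0.986, and Slco1a1 was 34.2 and 12.1. Elovl3 alone was higher in #09 (9.26 against 3.74), and other veins reached 21.9. Of 10 female-biased liver genes, 7 had no count in #05 and 38 to 506 counts in #09. Cyp3a41a had 4 counts in #05 and 5639 in #09, a level of 309 normalized CPM. Cyp2b9 had no count in #05 and 370 in #09, at least 139-fold higher against the limit of 3 counts, and A1bg had none and 142, at least 53.3-fold higher. Cux2 was similar in both OUT samples (1.99 and 2.03) and reached 8.13 in another vein. The Mup, Cyp3a and Sult2a genes have close paralogs, and how their reads were shared is uncertain.

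**Figure D3:**
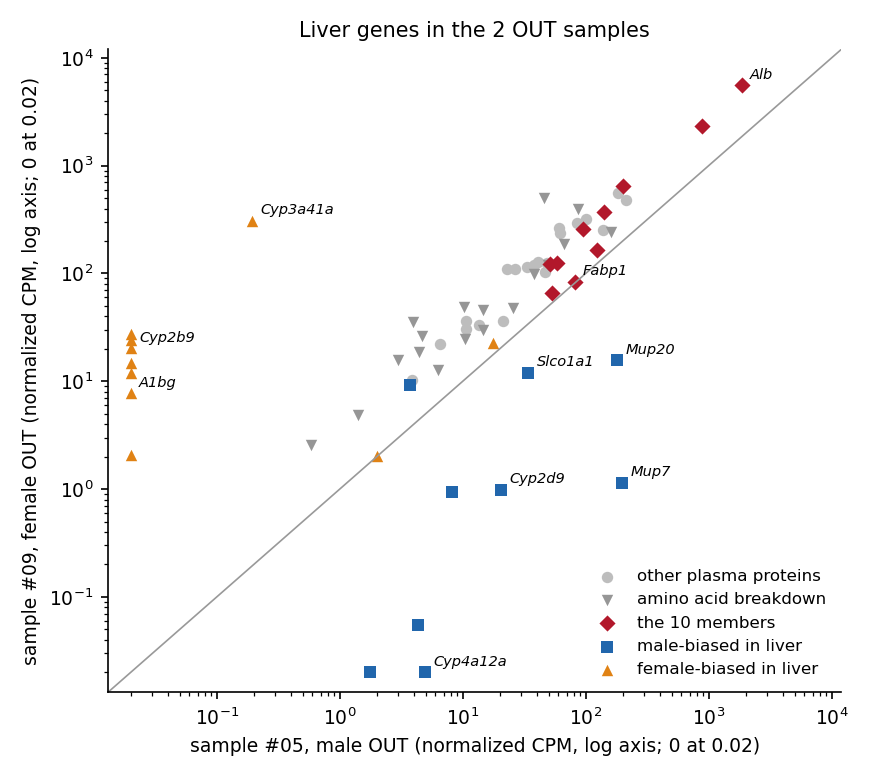
Normalized CPM of liver genes in #05 (x axis) and #09 (y axis), both on log axes with 0 drawn at 0.02, and the line of equal levels. Members and all plasma protein and amino acid genes lie above the line, by up to 11.0-fold. Below it lie 8 of 9 male-biased genes, and 7 female-biased genes lie at 0 in #05.

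Markers of other cell types of the liver were counted in the same way. Of 6 Kupffer cell genes, 2 were above the other samples in both OUT samples, Clec4f (0.972 and 8.05, with no count in any other vein) and Cd5l (2.67 and 14.8). Of 6 genes of the liver sinusoidal endothelium 3 were, Stab2 (2.19 and 4.33), Clec4g (1.51 and 3.89) and Oit3 (1.41 and 5.26), while Lyve1 and Fcgr2b were within the range of other veins. The summed level of the Kupffer cell genes was 29.2 normalized CPM in #05 and 96.6 in #09, against 15.8 to 45.5 elsewhere, and that of the sinusoidal genes was 267 and 297, against 134 to 455. Of 6 stellate cell genes only Lrat was (0.827 and 1.97). None of 5 fetal liver genes was, and Afp had no count in either OUT sample.

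Some members are also made by other organs, so their markers were examined. Of 7 enterocyte genes, of which Si is not in the count table, Fabp2 (52 and 84 counts) and Apoa4 (41 and 246 counts) were above the other samples in both, with no count elsewhere; Apoa4 is also a liver gene in mice. The summed enterocyte level was 5.35 and 19.3 normalized CPM, against 0.633 to 4.07 elsewhere. Alpi had no count in any sample, and Vil1 was below the median of the other veins, at 1 and 4 counts. Of 6 kidney tubule genes none was above the other samples in both, and Umod, Kap, Slc34a1 and Slc22a6 had no count in either. None of 6 genes each of pancreatic acinar cells, adrenal cortex, brown fat, Schwann cells and macrophages was above the other samples in both. The summed levels of the adrenal genes, 11.0 and 12.3 normalized CPM, were above the 3.08 to 8.96 of the other samples, and the part of adrenal and enterocyte genes in the results was not tested.

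Outside OUT, the few counts of the members had another composition. Over the other 10 libraries Alb had 224 counts and Ahsg 331, or 148 Ahsg counts for 100 of Alb (95% exact interval 124 to 176, counting error only). In OUT there were 11.4 (11.3 to 11.6), with 11.0 in #05 and 11.6 in #09. The nAVF samples had 151 (118 to 196) and the sham samples 145 (114 to 184), and these intervals overlapped. The ratio varied between libraries, from 65.0 in #07 to 700 in #17, where Alb had 4 counts, and each of the 10 libraries was above both OUT samples. Alb made up 69.7% and 75.3% of the counts of the 9 members other than Trf in #05 and #09, and 10.3% to 57.1% in the others.

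**Figure D4:**
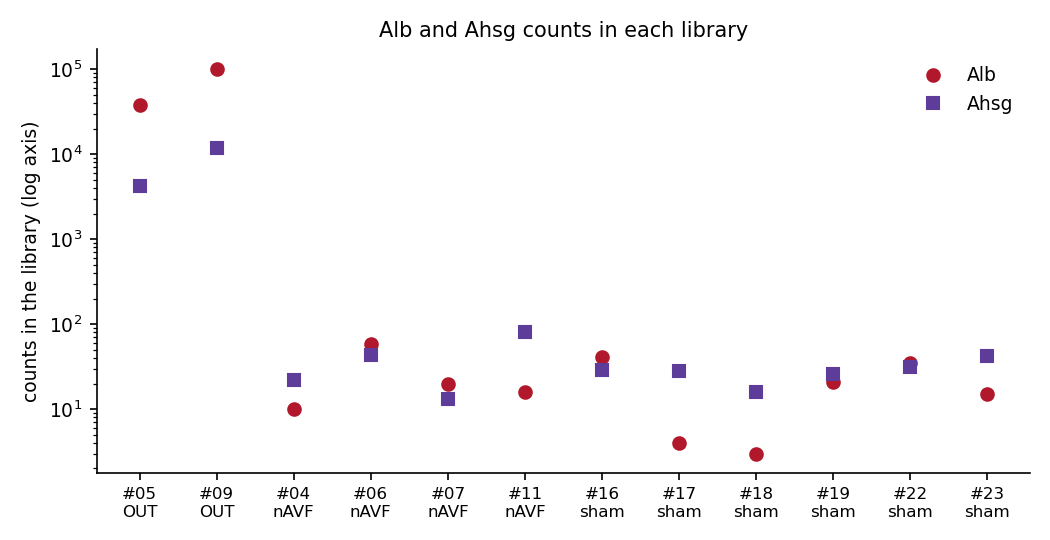
Counts of Alb and Ahsg in each library, with the libraries and their groups on the x axis and counts on a log y axis. Alb lies far above Ahsg in #05 and #09, and the 10 nAVF and sham libraries hold 3 to 59 counts of Alb and 13 to 81 of Ahsg.

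The AVF group as a whole was compared with the sham group, with genes called at an adjusted p under 0.05 and at least a 2-fold difference (edgeR's quasi-likelihood test, Benjamini-Hochberg). Since #05 and #09 are in the AVF group, this comparison repeats the choice of the members, and 7 of the 10 passed the filter (CPM over 1 in at least 2 samples) through these samples alone. Of the 10 members 9 were called higher in the AVF group, where 3.37% of the 15912 genes tested were called higher. The log2 fold change was 10.38 ± 2.54 (SE) for Alb, 11.15 ± 2.71 for Cps1 and 6.73 ± 1.68 for Ahsg, with adjusted p-values of the 9 members from 0.0202 to 0.0234. Trf was not called (1.29 ± 0.48, adjusted p = 0.0887). The AVF means were 1240 ± 2253 (SD, n = 6) normalized CPM for Alb and 812 ± 772 for Trf, so that the SD was near the mean or above it. Without #05 and #09 none of the 10 members was called, at log2 fold changes of -0.10 to 1.45, and without the sham sample #22 5 of 10 were called.

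The lists were counted in the same comparison. Outside OUT 7 of the 20 plasma protein genes, 5 of 17 genes of amino acid breakdown and 1 of 10 of bile acids and sulfonation would have passed the filter, so these counts restate the high levels in #05 and #09 and are no further evidence. Called higher in the AVF group were 15 of 20 plasma protein genes, 3 of 6 urea cycle genes tested, 10 of 17 of amino acid breakdown, 6 of 10 of bile acids and sulfonation and 4 of 10 of glucose and ascorbate. The calls were 1 of 7 hepatocyte factors, 1 of 5 Kupffer cell genes, 2 of 6 sinusoidal genes and 1 of 3 adrenal genes, all higher. Called higher of the periportal genes were 4 of 8, of the pericentral 2 of 8 and of the male-biased 2 of 4. Over all 15912 genes tested, 759 were called in either direction, and 536 of these were higher. Called lower were 2 of 6 brown fat genes. Only 2 of the 10 female-biased genes were tested, 1 of them called lower, because the filter removes genes that are high in #09 alone, so nothing is read from that list here. None of the genes tested of fetal liver, bile duct, stellate cells, enterocytes, kidney, pancreas, Schwann cells, macrophages, smooth muscle or endothelium was called in either direction.

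The comparison of the 4 nAVF with the 6 sham samples did not use the values of #05 and #09 that chose the members, but it was not free of that choice. The nAVF group was what remained after the authors set those samples apart by expression, and Mug1, Fabp1, Cps1, Tat and Sult2a8 passed the filter of more than 12 counts only through them. None of the 10 members was called in either direction by edgeR's quasi-likelihood test, and 0 had an unadjusted p under 0.05. Over all genes, 440 of 22059 tested, or 1.99%, were called. No other fit called a member, but DESeq2 gave no adjusted p for Ttr, Mug1, Fabp1, Rgn, Cps1, Tat and Sult2a8. It therefore could not call these members. The log2 fold change was 0.64 ± 0.37 (SE) for Ahsg (adjusted p = 0.339), 0.68 ± 0.68 for Alb (adjusted p = 0.602) and 0.32 ± 0.29 for Trf (adjusted p = 0.562). Trf was higher in nAVF through #04, and its log2 fold change was -0.05 without that sample. The other 7 members had 1 to 16 counts over the nAVF samples and 2 to 18 over the sham samples, and a difference between the groups was not detectable at this depth.

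Of the genes in the liver lists, Itih4 among the plasma proteins and Vsig4 among the Kupffer cell genes were called in this comparison, both higher in nAVF. No gene of the lists for the urea cycle, amino acid breakdown, glucose and ascorbate, bile acids and sulfonation or hepatocyte factors was called. In brown fat, 1 of 6 genes, Cox7a1, was called lower in nAVF.

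Across the 12 samples, the genes most like the members, by Pearson's correlation of log2(normalized CPM + 1) with the members' mean, were Mug2 (r = 0.999), the complement component C9 (0.999), the antitrypsin gene Serpina1a (0.999), the cytochrome Cyp1a2 (0.999) and Keg1 (0.999). Of 15902 genes compared, 302 had an r over 0.9. These values describe the same 12 libraries, and each rests on #05 and #09: C9 was 25.6 in #05 and 43.9 in #09 and at most 0.0945 elsewhere, and Cyp1a2 had no count elsewhere.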

How the data were processed

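The authors used PRINSEQ and Trimmomatic 0.39 for trimming and STAR 2.7.7a for alignment (GRCm39), and deposited the expected counts that RSEM 1.3.3 gave each gene; these divide reads between paralogs. All 12 columns were used, in which 5.72% to 7.75% of entries were fractional. The members and lists were chosen with earlier results of these data known. Operation and sex came from the labels, while the study's own text gave nAVF and OUT.

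After rounding, edgeR 4.0.16 (R 4.3.3) was run with TMM normalization. Genes with a CPM over 1 in at least 2 samples (AVF against sham) or more than 12 counts over the 12 samples (nAVF against sham) were tested with the quasi-likelihood test without covariates and called where the Benjamini-Hochberg adjusted p was under 0.05 and the difference was at least 2-fold. On simulated data the script recovered 172 of 200 genes changed 4-fold in the first comparison and 178 of 200 in the second. It also called 4 and 5 unchanged genes. The changed genes had a mean of at least 10 counts over the samples compared, so members with fewer counts are not covered. Levels and folds in OUT were not tested. Exact intervals are at 95% and cover counting error only. A list is described by its counts, the 3 genes highest over #05 and #09 and any with no count in both; other genes named in the text were chosen after their values were seen. Libraries of the same label group differed by more than sampling noise (chi-square over its degrees of freedom 36.8 to 613 in 12 pairs). Alternatives were the exact test of edgeR, DESeq2 1.42.0, RLE size factors, no filter, sex as a covariate, a replicate block, other library sizes and leaving out samples; the level above the median of the other 10 samples was added after the data were seen. A comparison of the members' proteins was not run, and some genes and a motif of the lists are not reported here.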

Additional observations from a re-analysis of the deposited data

Results flagged for a closer look

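In the AVF group (n = 6) the highest sample stood apart for 4 members by Dixon's criterion, which compares the distance to the nearest sample with the range. The sample was #09 each time, and the nearest was #05. Alb was 5585 normalized CPM in #09 and 1850 in #05, a distance of 0.669 of the range. Ttr was 258 against 95.2 (0.631), Trf was 2311 against 885 (0.699) and Ahsg was 649 against 203 (0.689). Chance marks about 1 in 20 groups in this way where genes are picked without regard to their values. That rate does not apply here, since the members were selected on high counts in these samples, and the 4 results are a description. The other 6 members were not marked, because #05 lay closer to #09.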

How the results depend on the processing

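In AVF against sham 759 genes were called, and 475 in the fit without #05 and #09, in which the members called fell from 9 to 0; Fabp1 (-0.070) and Sult2a8 (-0.10) then turned in log2 fold change, on at most 3 counts in a library. With 1 sample left out the counts were 470 to 1023 genes and 5 to 10 members, lowest without the sham sample #22. The exact test of edgeR called 1025 genes and 10 members, and DESeq2 1065 and 9. In nAVF against sham, 440 genes were called, 751 by the exact test, 777 by DESeq2 and 238 to 530 with 1 sample left out (292 without #06 and 238 without #11), with 0 members throughout. In this comparison DESeq2 gave no adjusted p for the members other than Alb, Trf and Ahsg, so it could not call them. Members with few counts changed direction there, none of them called: Fabp1 was 0.016 and Sult2a8 0.14 by DESeq2, Fabp1 was 0.00066 without the filter and 0.17 with sex as a covariate. With 1 sample left out the log2 fold changes ran from -0.71 to 0.42 for Ttr, -0.053 to 0.52 for Trf, -2.23 to 2.86 for Mug1, -0.79 to 0.53 for Fabp1, -0.15 to 0.83 for Rgn, -0.55 to 0.92 for Tat and -1.80 to 1.67 for Sult2a8; the cause was not tested. With the replicate number within sex as a block, 668 genes and 7 members were called in AVF against sham (Alb at a log2 fold change of 5.25, adjusted p = 0.267, and Ahsg at 3.37, adjusted p = 0.195, lost the call in edgeR's quasi-likelihood test) and 435 genes and 0 members in nAVF against sham, where Ttr was -0.26. Same-numbered samples correlated at -0.218 to 0.283 in their deviations in AVF against sham, 3 of 6 pairs over 0.1, and at -0.185 to 0.313 in nAVF against sham, 3 of 4 pairs over 0.1. Not every pair was over 0.1 in either, so the numbers were not taken as pairs. The median ratio of #09 to #05 kept its direction at 2.25 to 2.50 under other library sizes. Single ratios moved more, under these sizes and the level above the median of the other samples. Those of Alb, Ttr, Ahsg, Mug1 and Cps1 left their exact intervals under 2 alternatives each, and that of Trf under 3. Those of Fabp1, Rgn, Tat and Sult2a8 did so under 1 each. Depth limits statements on 7 members outside OUT, where no library holds more than 9 counts of any of them.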
